A study of Mus musculus with 18 samples.

Results

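A set of 10 genes that are commonly used to read the activity of the transcription factor NRF2 were followed across 18 RNA-seq libraries of mouse retina. They are Nqo1, Hmox1, Slc7a11, Gclc, Gclm, Gsr, Mgst1, Srxn1, G6pdx and Me1. The genes were taken by symbol from the deposited gene counts, and all 10 were present among the 34800 genes left once ribosomal RNA genes had been removed. All 10 also passed the filter on low counts, which left 16183 genes for testing.

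The retinas came from male mice of the wild type strain C57BL/6J (WT) and from the diabetic strain C57BL/6-Ins2Akita/J (Akita), which carries a heterozygous mutation of the Ins2 insulin gene. In Akita mice the primary defect lies in the insulin-producing cells of the pancreas, and the retina is affected through the diabetes that follows. Mice drank either plain water (3 WT and 4 Akita libraries) or water with N-acetyl-L-cysteine ethyl ester (NACET), a cell-permeable ester of the cysteine donor N-acetylcysteine (6 WT + NACET and 5 Akita + NACET libraries). The water held 0.33 mg/mL NACET, an intake of 50 mg/kg daily, and treatment ran from week 4 to week 24 of life. The labels do not say whether each library came from a separate mouse, so the p-values below measure the spread between libraries, which may in part be technical.

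NRF2, encoded by Nfe2l2, is held at a low level by KEAP1, which presents it for degradation. Electrophiles and oxidants that modify cysteines of KEAP1 let NRF2 accumulate, enter the nucleus and bind antioxidant response elements together with small MAF proteins. Its targets detoxify quinones and heme, import cystine, make and recycle glutathione, and supply the NADPH that these reactions consume. In the retina, where photoreceptors carry a high oxidative load, the pathway is best known for protecting neurons, glia and the pigment epithelium.

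To show the sequence through which NRF2 is thought to act on these genes, the core of the antioxidant response element (TGACNNNGC, either strand) was searched in RefSeq promoters of build GRCm38.p6, each covering 250 bases before and 50 bases after a start. Of the 10 genes, 7 had an entry, and 5 of these held the core in at least 1 promoter. Of all 27025 gene symbols in the table, 14% held it in at least 1 promoter. Counted by promoter, 5 of the 9 of these genes and 12.4% of all 32851 held it. The matched stretches follow, each as 30 bases in the direction of transcription, with the 9 bases of the match in capitals.
G6pdx: aggcgggtcaGCTCAGTCAaagcacacgcc
Me1: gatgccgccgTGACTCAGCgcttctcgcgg
Gclm: gctcccgggcGCACCGTCAactctcacgag
Mgst1: gcggggcttgGCACGGTCAggaggcggggt
Srxn1: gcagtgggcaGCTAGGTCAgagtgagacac
In Me1 the core read in the direction of transcription, and in the other 4 genes it lay on the opposite strand. The G6pdx stretch is chrX:74428918-74428947 (minus strand), and its match began 57 bases upstream of the start. The Me1 stretch is chr9:86695901-86695930 (minus strand), with the match spanning the start from 6 bases upstream. The Gclm stretch is chr3:122245413-122245442 (plus strand) with a match 134 bases upstream, and the Mgst1 stretch is chr6:138140461-138140490 (plus strand) with a match 56 bases upstream. The Srxn1 stretch is chr2:152105542-152105571 (plus strand), with the match 29 bases downstream. The promoters of Nqo1 and Slc7a11 did not contain these letters within the window. A match is a description of the sequence, and no binding was measured here.

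Between 11495596 and 17814479 reads per library were counted in genes. Rod photoreceptor markers were detected in every library, and their 10 genes summed to between 94740 and 170429 CPM (reads of a gene scaled to 1000000 reads of the normalised library size) in 17 libraries and to 223053 CPM in Akita replicate 4. That library also had the lowest summed level of 10 Mueller glia markers (1744 CPM). Uniquely aligned reads outside exons made up 9.67 to 13.3% in Akita, 14.3 to 19.8% in Akita + NACET, 14.9 to 17.1% in WT and 9.55 to 16.5% in WT + NACET, so that Akita libraries did not overlap with Akita + NACET or WT libraries in this share.

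Per kilobase of exon, the order of the 10 genes was led by the NADPH-producing enzymes. G6pdx stood at 31.7 ± 3.79 CPM per kilobase (SD, n = 18 libraries) and Me1 at 21.7 ± 4.59. Srxn1 (15.1 ± 1.26), Gsr (13.7 ± 1.64), Mgst1 (8.66 ± 7.87) and Gclm (8.23 ± 0.880) followed, and each of these lay within 1 SD of its neighbour. Nqo1 (4.91 ± 1.35) was clear of Gclm above it and of Gclc below it. Gclc (1.76 ± 0.246) and Hmox1 (1.63 ± 0.573) did not differ beyond their spread, and Slc7a11 was lowest at 0.357 ± 0.360. When the longest transcript was used as the length, Mgst1 moved above Gsr (14.9 against 14.1 CPM per kilobase) and Hmox1 above Gclc (2.19 against 1.76).

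**Figure D1:**
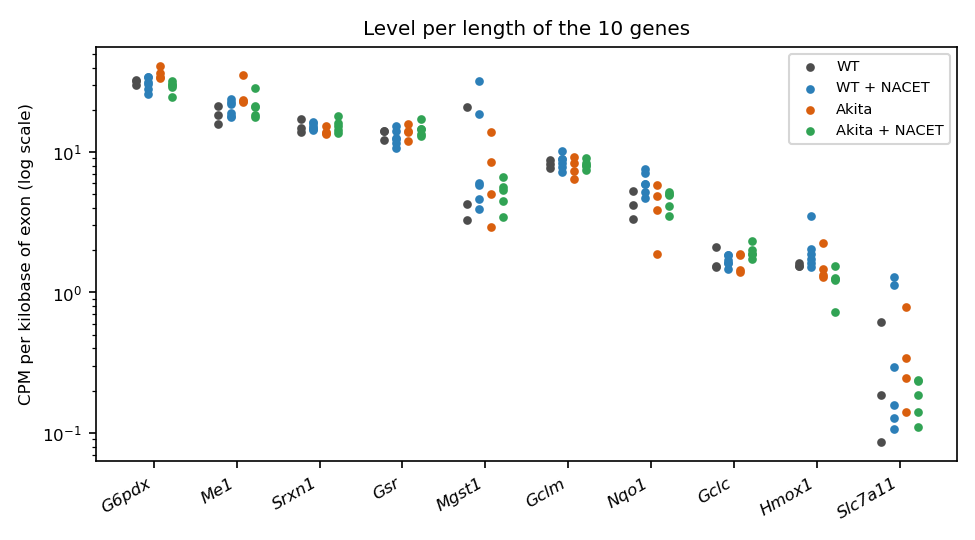
Level of each gene per length, as CPM per kilobase of exon on a log scale, with 1 point per library coloured by group. G6pdx lies between 24.6 and 41.1 in all 18 libraries, while Slc7a11 spans 0.0857 to 1.28 and Mgst1 2.92 to 32.1.

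The genes also differed in how steady they were between libraries of a group. The pooled SD within groups on the log2 scale was 0.12 for Srxn1, 0.14 for G6pdx, 0.16 for Gclm and 0.17 for both Gsr and Gclc, all below the median of 0.22 over all tested genes. It was 0.24 for Me1, 0.33 for Hmox1 and 0.38 for Nqo1. For Mgst1 and Slc7a11 it reached 1.01 and 1.06, and more than 99% of tested genes had a smaller SD.

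**Figure D2:**
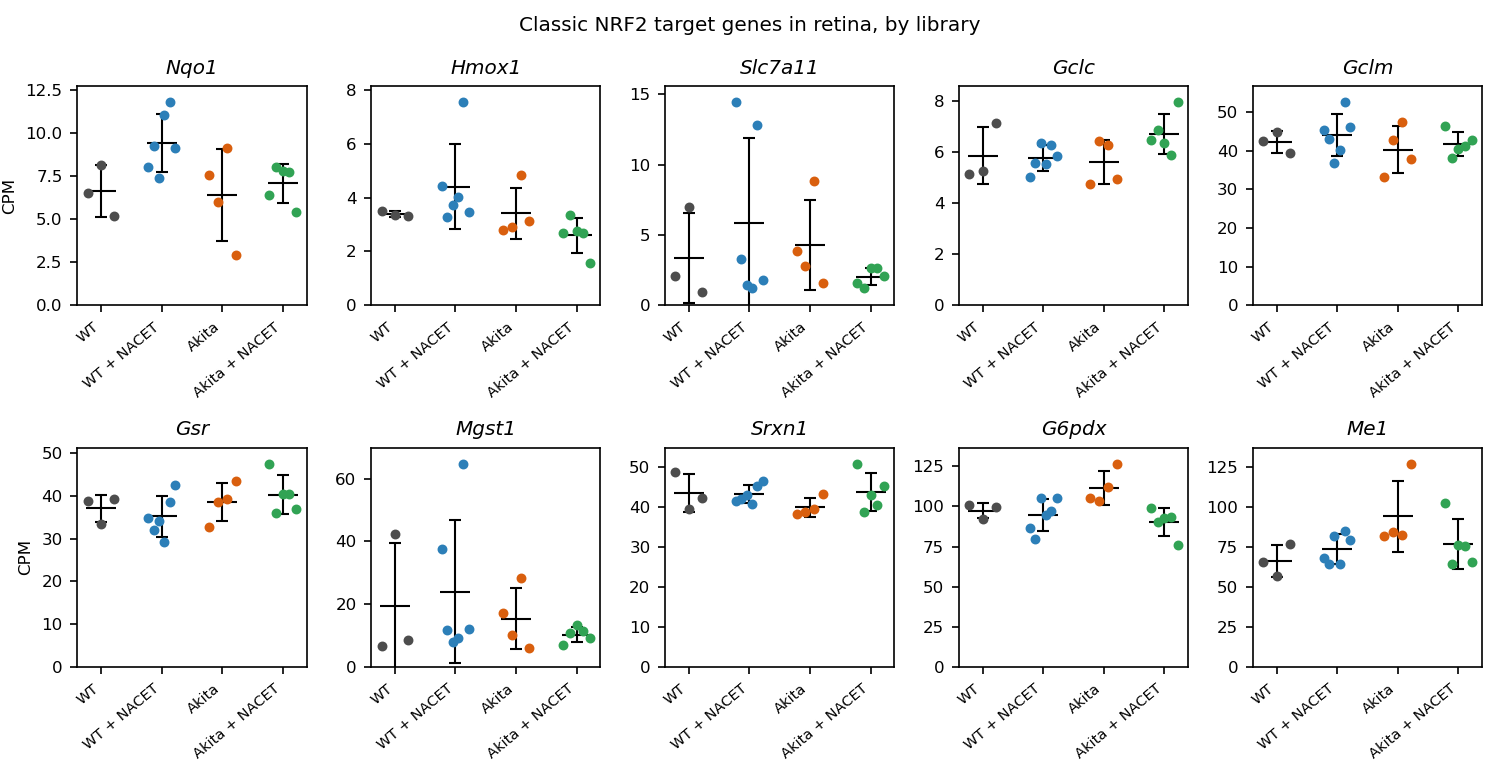
CPM of each gene in every library, by group, with the group mean (horizontal bar) and SD (error bar). Axes start at 0, where the lower error bars of Slc7a11 and Mgst1 are cut off, and a few high libraries set the means of these 2 genes, whereas Gclc, Gclm, Gsr, Srxn1 and G6pdx spread less.

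The first question was whether diabetes alone shifted these genes. In Akita against WT, none of the 10 genes was called at an adjusted p of at most 0.05 (edgeR quasi-likelihood test), where 7.64% of all tested genes were called. By an unadjusted p under 0.05 there was 1 gene, Me1, against 4377 of the 16183 tested genes. Point estimates were positive for 5 genes and negative for 5, with a median log2 fold change of -0.01, equal after rounding to the median over all tested genes. For 5 genes (Gclc, Gclm, Gsr, Srxn1 and G6pdx) the 95% interval excluded a change of 1.5-fold in either direction.

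NACET in diabetic mice was then examined. In Akita + NACET against Akita, G6pdx alone of the 10 genes was called, and it was lower with NACET. The share called over all tested genes was 9.65%, so 1 of 10 is close to the background. Of the other 9 genes, Nqo1, Gclc, Gclm, Gsr and Srxn1 had positive and Hmox1, Slc7a11, Mgst1 and Me1 negative estimates, and the 95% intervals of Gclc, Gclm, Gsr and Srxn1 excluded a 1.5-fold change in either direction, as did that of G6pdx.

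In mice without diabetes, WT + NACET against WT gave no call among the 10 genes by edgeR, against 1.48% of all tested genes. None of the 10 reached an unadjusted p under 0.05, against 3162 of the 16183 tested genes. DESeq2 made no call among the 10 genes there either, and it called 712 genes in all. Gclc, Gclm, Gsr, Srxn1, G6pdx and Me1 had intervals that excluded a 1.5-fold change in either direction. The WT + NACET libraries differed from all others in genes outside the pathway. Wdfy1 stood at 89.0 to 103 CPM in WT + NACET and 12.4 to 17.0 CPM in the other groups, and Acp1 at 2.05 to 3.14 against 26.7 to 40.1 CPM. Nnt, listed as a C57BL/6J substrain gene, stood at 16.3 to 23.8 against 7.05 to 14.8 CPM. It was not called by edgeR in WT + NACET against WT (log2 fold change 0.70, adjusted p = 0.0552). Whether the strain of these mice differed was not tested. In this group NACET and whatever else set these libraries apart cannot be told apart.

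Akita + NACET against WT gave no call among the 10 genes by edgeR and none by DESeq2, which called 11 genes in all. None of the 10 had an unadjusted p under 0.05, against 750 of the 16183 tested genes. Only 1 gene of all those tested was called by edgeR (0.00618%). The difference between the NACET effects in the diabetic and the WT background (genotype by NACET interaction) was called for none of the 10 genes by edgeR or DESeq2. In the interaction edgeR called 20.3% of all tested genes, and DESeq2 called 3746 genes in all. Hmox1 was the only member with an unadjusted p under 0.05 in the interaction, against 5759 of the 16183 tested genes. The interaction uses the WT + NACET libraries, so the limit given for that group holds there too. The comparisons share groups, and their values are therefore not independent.

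**Figure D3:**
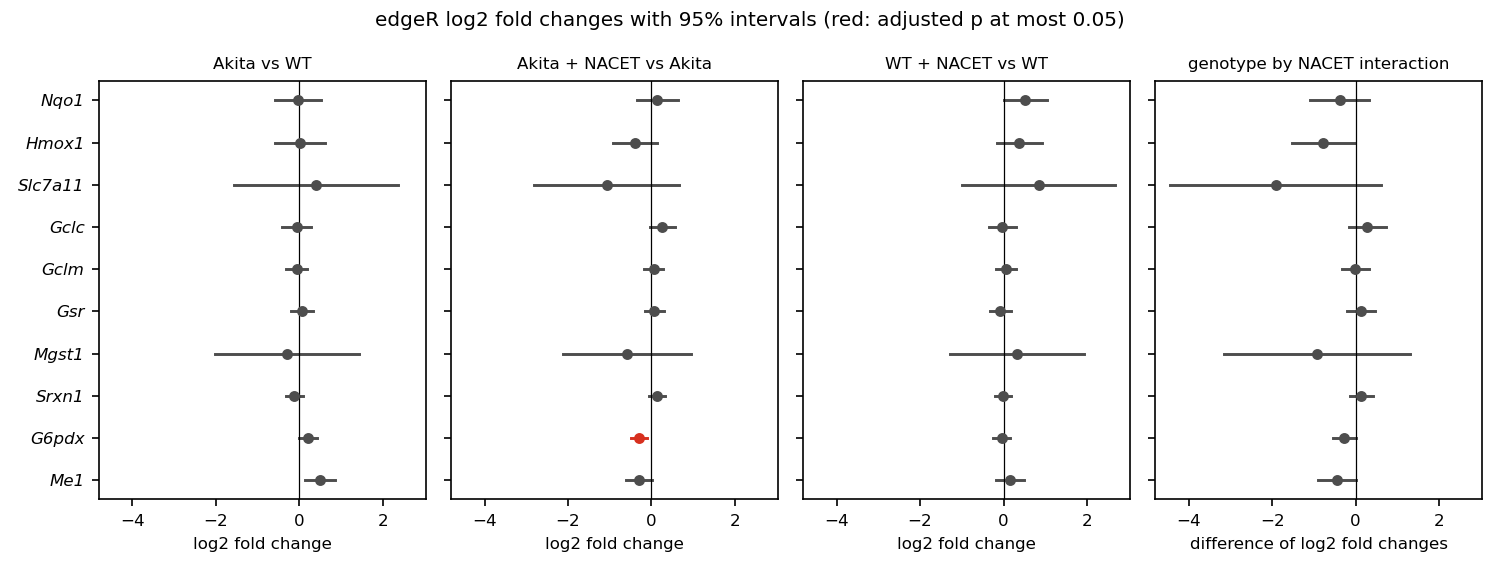
Log2 fold change (points) with 95% interval (lines) of each gene in 3 comparisons and in the genotype by NACET interaction. G6pdx in Akita + NACET against Akita is the only point past the threshold, and the intervals of Slc7a11 and Mgst1 are several times wider than those of Gclm, Gsr and Srxn1.

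Nqo1 encodes the quinone reductase that is the usual marker of NRF2 activity (ENSMUSG00000003849, mm9 chr8:109912125-109927106, minus strand). It stood at 6.53, 8.15 and 5.18 CPM in the WT libraries and at 7.57, 5.96, 9.10 and 2.90 CPM in the Akita libraries. The groups overlapped entirely, and Akita replicate 4 held the lowest value of all libraries, from 35 reads. Akita + NACET libraries lay at 6.41, 8.02, 7.79, 7.71 and 5.42 CPM, within the range of the Akita group. WT + NACET libraries ranged from 7.36 to 11.8 CPM with a median of 9.18, so that 4 of the 6 lay above every WT library. The log2 fold change of WT + NACET against WT was 0.52 (SE 0.25, 95% interval -0.00062 to 1.03, unadjusted p = 0.0503, adjusted p = 0.256), which did not pass the test. The estimate in Akita + NACET against Akita was 0.14 (SE 0.23, 95% interval -0.35 to 0.62, adjusted p = 0.729). The difference of these effects was -0.38 (SE 0.34, adjusted p = 0.441).

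Hmox1, the inducible heme oxygenase that opens heme to biliverdin, iron and carbon monoxide (ENSMUSG00000005413, mm9 chr8:77617490-77624495, plus strand), was counted 24 to 127 times per library. The WT libraries were tightly placed at 3.52, 3.36 and 3.31 CPM, and the Akita libraries at 2.81, 2.90, 4.83 and 3.15 CPM. Akita replicate 3 was high within its group. With NACET the Akita group stood at 2.69, 3.36, 2.74, 2.67 and 1.57 CPM, and the WT group ranged from 3.29 to 7.55 CPM with a median of 3.87. Estimates therefore pointed in opposite directions, with a log2 fold change for NACET of -0.39 (SE 0.25, adjusted p = 0.314) in Akita and 0.38 (SE 0.26, adjusted p = 0.430) in WT. The difference between them was -0.77 (SE 0.36, 95% interval -1.53 to -0.016, unadjusted p = 0.0458, adjusted p = 0.133) and was not called. It was -0.26 (adjusted p = 0.623) without the 4 libraries described next, which include the highest library of the WT + NACET group and that of the Akita group.

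Slc7a11 encodes the transport subunit of the cystine/glutamate exchanger, which brings in the cystine from which glutathione is made (ENSMUSG00000027737, mm9 chr3:50168858-50247535, minus strand). WT libraries stood at 2.08, 6.95 and 0.963 CPM, Akita libraries at 3.86, 2.78, 8.85 and 1.57 CPM, and Akita + NACET libraries at 1.58, 1.24, 2.62, 2.67 and 2.09 CPM. WT + NACET libraries ranged from 1.19 to 14.4 CPM with a median of 2.53. High values occurred singly or in a pair within 3 of the 4 groups, and the groups overlapped.

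Mgst1, a membrane-bound glutathione transferase with peroxidase activity (ENSMUSG00000008540, mm9 chr6:138088837-138105276, plus strand), showed the same libraries at the top. WT libraries stood at 6.61, 42.4 and 8.61 CPM, Akita libraries at 17.0, 10.1, 28.2 and 5.89 CPM, and Akita + NACET libraries at 6.89, 10.7, 13.3, 11.4 and 9.08 CPM. WT + NACET libraries ranged from 7.89 to 64.7 CPM with a median of 11.96. No Akita + NACET library was above 13.3 CPM, whereas each other group had at least 1 library at 17.0 CPM or above.

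The 4 highest libraries for Slc7a11 and for Mgst1 were WT replicate 2, WT + NACET replicates 1 and 5 and Akita replicate 3. In these 4, Slc7a11 lay between 6.95 and 14.4 CPM and Mgst1 between 28.2 and 64.7 CPM, whereas in the other 14 libraries they lay between 0.963 and 3.86 CPM and between 5.89 and 17.0 CPM. Genes of extracellular matrix and stroma, in a list of 10 (Col1a1, Col1a2, Col3a1, Col6a3, Dcn, Lum, Fmod, Ogn, Pdgfra and Fbln1) written after these libraries had been seen, summed to 172 to 225 CPM in the 4 libraries and to 21.9 to 77.7 CPM in the other 14. Not every gene of that list did so. Col1a1 reached 0.772 CPM in WT + NACET and 1.18 CPM in Akita + NACET, which holds none of the 4. A list of 10 pigment epithelium markers did not set the 4 libraries apart, with summed levels of 254 to 717 CPM there and 73.2 to 1549.7 CPM in the other 14. Of its genes, Tyr, Tyrp1 and Pmel, which make melanin or its fibres and were picked after their values had been seen, together stood at 25.3 to 253 CPM in the 4 libraries and at 4.67 to 24.5 CPM in the other 14. Tyr alone did not set the 4 apart, since its highest value in Akita (1.82 CPM) lay below its lowest in WT + NACET (3.04 CPM). The part of tissue outside the neural retina in these levels was not tested.

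With all libraries, no comparison of these 2 genes was informative. The log2 fold change of Slc7a11 for NACET in Akita was -1.07 with a 95% interval from -2.81 to 0.66, and for NACET in WT it was 0.84 with an interval from -0.99 to 2.67. For Mgst1 the corresponding values were -0.58 (-2.12 to 0.96) and 0.33 (-1.27 to 1.94). Leaving the 4 libraries out, an alternative added after seeing the data, brought the Slc7a11 estimates to -0.44 (adjusted p = 0.447) in Akita and 0.35 (adjusted p = 0.811) in WT, and the Mgst1 estimates to -0.11 (adjusted p = 0.827) and 0.43 (adjusted p = 0.635). Since these 4 libraries are the highest for both genes, the changed estimates are no independent check.

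**Figure D4:**
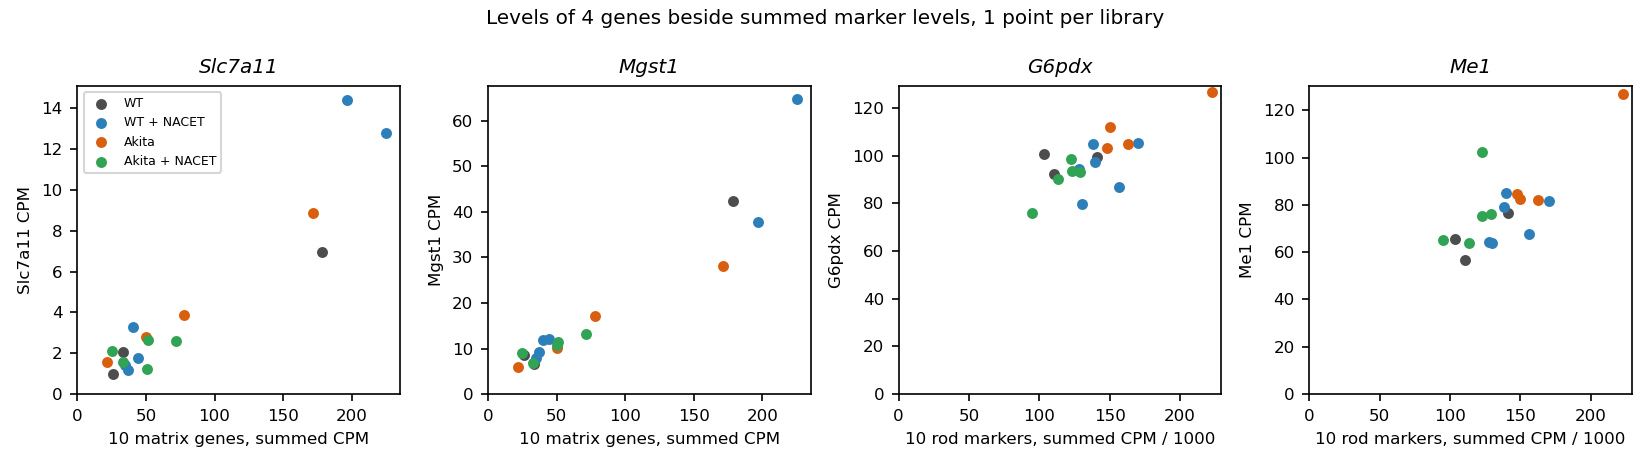
CPM of Slc7a11 and Mgst1 against the summed CPM of 10 matrix and stroma genes, and CPM of G6pdx and Me1 against the summed CPM of 10 rod markers (divided by 1000), with 1 point per library coloured by group. For the matrix genes 4 libraries at 172 to 225 CPM stand apart from the other 14, and for the rod markers Akita replicate 4 is the rightmost point.

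Both subunits of the enzyme that opens glutathione synthesis were measured. Gclc, the catalytic subunit of glutamate-cysteine ligase (ENSMUSG00000032350, mm9 chr9:77602342-77642292, plus strand), stood at 5.17, 5.28 and 7.17 CPM in WT, at 4.77, 6.43, 6.28 and 4.97 CPM in Akita, and at 6.48, 6.90, 6.38, 5.90 and 7.97 CPM in Akita + NACET. WT + NACET libraries ranged from 5.03 to 6.37 CPM with a median of 5.72. All but 1 of the Akita + NACET libraries lay at or above 6.38 CPM, but the Akita libraries reached 6.43 CPM. The log2 fold change of Akita + NACET against Akita was 0.26 (SE 0.14, 95% interval -0.045 to 0.56, adjusted p = 0.248). These values rest on 60 to 122 reads per library, for which counting alone gives a coefficient of variation of 9.73 to 10.9% in the 4 groups.

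Gclm, the modifier subunit that raises the activity of the ligase (ENSMUSG00000028124, mm9 chr3:121948475-121972902, plus strand), was expressed at 33.2 to 52.6 CPM in all libraries. Group means were 42.3 ± 2.82 CPM in WT (SD, n = 3), 44.1 ± 5.39 in WT + NACET (n = 6), 40.3 ± 6.12 in Akita (n = 4) and 41.8 ± 3.06 in Akita + NACET (n = 5). The NACET estimates were 0.06 in WT (95% interval -0.17 to 0.30) and 0.05 in Akita (-0.17 to 0.27) on the log2 scale. A change by NACET of 1.5-fold therefore lay outside the interval in either genotype.

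Gsr, which recycles oxidised glutathione with NADPH (ENSMUSG00000031584, mm9 chr8:34762995-34808635, plus strand), had group means of 37.1 ± 3.16 CPM in WT, 35.2 ± 4.73 in WT + NACET, 38.5 ± 4.45 in Akita and 40.2 ± 4.55 in Akita + NACET. Its NACET estimate was -0.08 in WT (95% interval -0.32 to 0.17) and 0.06 in Akita (-0.17 to 0.30). Srxn1, the sulfiredoxin that restores over-oxidised peroxiredoxins (ENSMUSG00000032802, mm9 chr2:151931252-151937112, plus strand), was the steadiest of the 10. It stood at 43.4 ± 4.81, 43.1 ± 2.27, 39.8 ± 2.35 and 43.6 ± 4.67 CPM in WT, WT + NACET, Akita and Akita + NACET. The highest library was only 1.33 times the lowest, and the log2 fold change for NACET was -0.0098 (95% interval -0.20 to 0.18) in WT and 0.13 (-0.051 to 0.31) in Akita.

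G6pdx encodes the X-linked glucose phosphate dehydrogenase that commits glucose to the pentose phosphate pathway and yields NADPH (ENSMUSG00000031400, mm9 chrX:71654822-71674533, minus strand). Akita libraries stood at 105, 103, 112 and 127 CPM and Akita + NACET libraries at 98.7, 90.2, 93.0, 93.4 and 75.9 CPM. The groups did not overlap, which was also true of 14.1% of all tested genes in this comparison. WT libraries stood at 101, 92.2 and 99.4 CPM, and WT + NACET libraries ranged from 79.5 to 105 CPM with a median of 95.9. Expression in Akita + NACET fell to 0.81-fold of Akita (95% interval 0.71 to 0.92), a log2 fold change of -0.31 (SE 0.092, unadjusted p = 0.00298, adjusted p = 0.0410). Akita libraries also lay above every WT library without passing the test (log2 fold change 0.20, SE 0.11, adjusted p = 0.233), and NACET in WT gave -0.04 (SE 0.097, adjusted p = 0.845). The difference between the NACET effects was -0.27 (SE 0.13, unadjusted p = 0.0597, adjusted p = 0.157), so a restriction of the decrease to diabetic mice was not shown.

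The G6pdx call rested close to the threshold. It was kept by DESeq2 (log2 fold change -0.32, adjusted p = 0.0220), and it was lost without Akita replicate 1 (adjusted p = 0.0540), 3 (0.0699) or 4 (0.128) and without Akita + NACET replicate 2 (0.0796), 4 (0.0587) or 5 (0.106), with G6pdx estimates between -0.34 and -0.24. With the non-exonic read share as a covariate the G6pdx estimate was -0.04 (adjusted p = 0.913). This share did not overlap between Akita and Akita + NACET, so that fit cannot separate it from the comparison. With the covariate, 0 of all tested genes were called. In Akita + NACET against Akita the rod markers were lower, as G6pdx was, and the share was higher. Summed rod markers were 147842 to 223053 CPM in Akita and 94740 to 129147 CPM in Akita + NACET. Where 9.65% of all tested genes were called, 8 of the 10 rod markers fell in this comparison and none rose. That count was 0 without Akita replicate 4, 1 without Akita + NACET replicate 2 or 5, and 5 without Akita replicate 1 or Akita + NACET replicate 4. It was 0 with the replicate block or the covariate, 2 with only the compared groups in the fit and 5 without the 4 libraries with high matrix gene levels. In WT + NACET against WT all 10 rod markers had positive estimates (median log2 fold change 0.27), and G6pdx gave -0.04. The part of the rod markers in the G6pdx result was not tested, and that of the share cannot be told apart from the groups. In bulk tissue fewer cells of a type and less RNA per cell cannot be told apart.

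**Figure D5:**
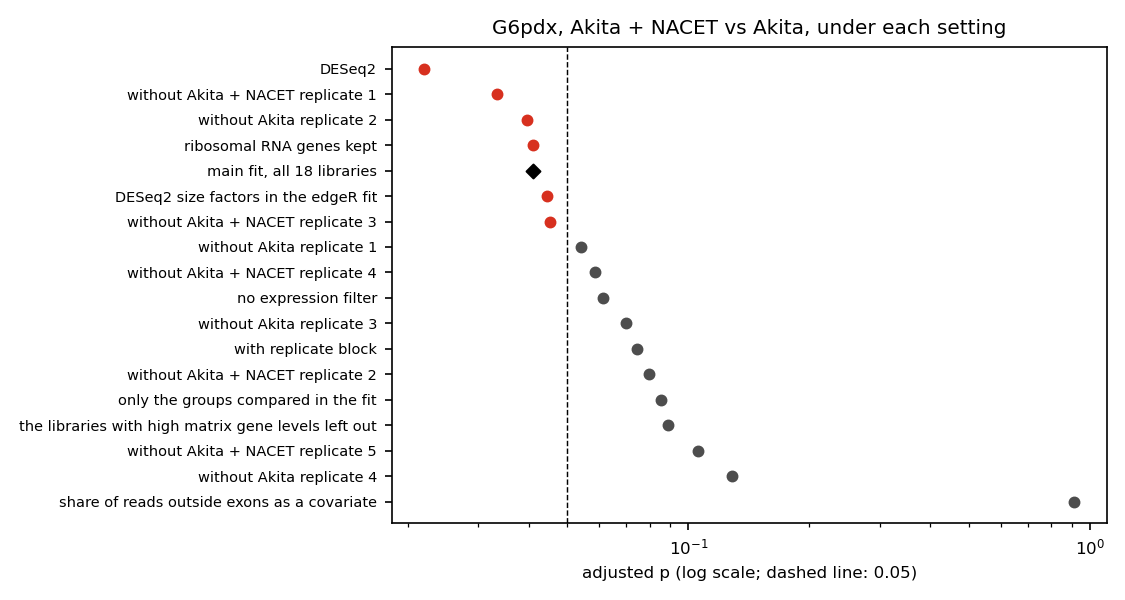
Adjusted p of G6pdx in Akita + NACET against Akita under each setting, on a log axis, with the threshold of 0.05 dashed. The main fit with all 18 libraries (diamond, 0.0410) and 6 alternatives lie left of the line and 11 alternatives right of it, up to 0.913 with the non-exonic read share as a covariate. That share did not overlap between Akita and Akita + NACET.

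Part of G6pdx could not be counted without ambiguity. It shares 418 bases, 13.6% of its exons, with Ikbkg on the opposite strand, and counting ignored strand. Ikbkg itself gave -0.11 on the log2 scale (SE 0.085, adjusted p = 0.384) in Akita + NACET against Akita. The separate intronless copy G6pd2 was low, at 1.55 to 3.65 CPM, and reads that align to more than 1 place were not counted for either copy.

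Me1 encodes the cytosolic malic enzyme, which makes NADPH from malate (ENSMUSG00000032418, mm9 chr9:86474970-86589947, minus strand). WT libraries stood at 65.7, 56.6 and 76.4 CPM and Akita libraries at 81.8, 84.4, 82.4 and 127 CPM. Every Akita library lay above every WT library, as for G6pdx, so that 2 of the 10 genes did not overlap in this comparison, against 23.2% of all tested genes. The Me1 estimate was 1.41-fold (95% interval 1.10 to 1.82), a log2 fold change of 0.50 (SE 0.17, unadjusted p = 0.00906, adjusted p = 0.0757), which did not pass the edgeR threshold. DESeq2, which called 13.0% of the genes for which it gave an adjusted p, called Me1 (log2 fold change 0.52, adjusted p = 0.0427) and none of the other 9. Without Akita replicate 4, the library with the highest Me1 and rod levels, the edgeR estimate was 0.32 (adjusted p = 0.229), and without WT replicate 2 it was 0.40 (adjusted p = 0.263).

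Me1 stood at 102, 63.9, 75.9, 75.4 and 65.2 CPM in Akita + NACET, where 4 of the 5 libraries lay below every untreated Akita library and Akita + NACET replicate 1 lay among them. The log2 fold change against Akita was -0.29 (SE 0.15, 95% interval -0.60 to 0.019, adjusted p = 0.200) and was not called. In WT + NACET, Me1 ranged from 64.0 to 84.9 CPM with a median of 73.5, and the log2 fold change against WT was 0.15 (SE 0.16, adjusted p = 0.627). The difference of the NACET effects was -0.44 (SE 0.22, unadjusted p = 0.0565, adjusted p = 0.152) and was called only when Akita + NACET replicate 1 was left out (-0.57, adjusted p = 0.0466). None of the 10 genes was without overlap in WT + NACET against WT (11.5% of all tested genes) or in Akita + NACET against WT (4.17%).

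The other genes of the pathway were read from a list of 34 regulators and targets, of which 33 were tested. In Akita against WT, 3 rose and none fell, which is close to the 7.64% called over all tested genes, and the median log2 fold change of the list was 0.13 against -0.01 over all tested genes. Nfe2l2 itself rose by 0.47 on the log2 scale (SE 0.12, adjusted p = 0.0266), from 26.5, 27.0 and 25.0 CPM in WT to 33.8, 31.9, 36.2 and 43.2 CPM in Akita. Idh1, the cytosolic NADP-dependent isocitrate dehydrogenase, rose by 0.47 (SE 0.093, adjusted p = 0.0155). Akr1b8, an aldo-keto reductase, rose by 1.65 (SE 0.36, adjusted p = 0.0165) from 0.287 to 1.04 CPM in WT to 1.62 to 2.45 CPM in Akita. Akr1b8 was counted only 4 to 13 times per WT library. Without WT replicate 1 the adjusted p of Akr1b8, Idh1 and Nfe2l2 lay between 0.108 and 0.116, and without WT replicate 2 between 0.0581 and 0.0880, so that none was called. In both of these fits 0 of all tested genes were called. Nfe2l2 was not called without Akita replicate 4 (adjusted p = 0.0824) or without WT replicate 3 (adjusted p = 0.0573) either.

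When Akita + NACET was set against Akita, 8 of the 33 genes fell and none rose, where 9.65% of all tested genes were called in either direction, and the median of the list was -0.12 against -0.0032 over all tested genes. Taldo1, the transaldolase of the pentose phosphate pathway, fell by 0.43 (SE 0.10, adjusted p = 0.0210), and Pgd, the phosphogluconate dehydrogenase that follows G6pdx in that pathway, fell by 0.28 (SE 0.069, adjusted p = 0.0227). Idh1 fell by 0.35 (SE 0.080, adjusted p = 0.0206), and Esd, an esterase that acts on glutathione conjugates, fell by 0.42 (SE 0.10, adjusted p = 0.0218). Nfe2l2 was also among the 8, at 35.7, 26.6, 27.4, 25.7 and 27.1 CPM in Akita + NACET (log2 fold change -0.35, SE 0.10, adjusted p = 0.0411). Akita + NACET replicate 1 lay within the Akita range of Nfe2l2, and the other 4 libraries lay below it. The Nfe2l2 call was kept in 5 of 17 alternative settings, against 8 for Pgd, 11 for Esd, 12 for Taldo1 and 13 for Idh1. The count of 8 was 0 without Akita replicate 4, 0 without Akita + NACET replicate 5, 0 with the replicate number as a block and 0 with the non-exonic read share as a covariate. Over all tested genes, 1, 101, 219 and 0 were called in these fits, in the same order. The count of the list was 3 without Akita replicate 1, 4 without Akita replicate 3, 2 without Akita + NACET replicate 2, 5 without Akita + NACET replicate 4 and 3 without the 4 libraries with high matrix gene levels. Over all tested genes, these fits called 808, 992, 425, 872 and 857, in the same order. The covariate cannot be separated from this comparison, since the share did not overlap between the groups. The rod markers that fell in the same comparison, with the exceptions given above, were also 8, and their part in these counts was not tested.

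None of the 33 genes was called in WT + NACET against WT or in Akita + NACET against WT by edgeR. In these comparisons 6 and 1 of the 33 had an unadjusted p under 0.05, against 3162 and 750 of the 16183 tested genes. DESeq2 called none in the former and Akr1b8 in the latter (adjusted p = 0.000249), where it called 712 and 11 genes in all. In the interaction 8 of the 33 were called, 7 negative and 1, Mafg, positive, which is close to the 20.3% called over all tested genes. The interaction uses the WT + NACET libraries, in which NACET cannot be told apart from whatever else set them apart. Idh1 gave -0.59 (SE 0.12, adjusted p = 0.00363), Esd -0.71 (SE 0.15, adjusted p = 0.00489), Pgd -0.44 (SE 0.10, adjusted p = 0.00791) and Gstp1, a cytosolic glutathione transferase, -0.66 (SE 0.17, adjusted p = 0.0131). Mafg, a small MAF partner of NRF2, gave 0.87 (SE 0.26, adjusted p = 0.0253) and was not called without Akita replicate 3 (0.0505), WT replicate 1 (0.0610) or WT replicate 2 (0.0646). Without the 4 libraries with high matrix gene levels, 2 of the 33 genes were called in the interaction, both negative. Over all tested genes, 726 were called in that fit. Nfe2l2 was among the 7, at -0.55 (SE 0.15, adjusted p = 0.0179), and Keap1, the repressor, was called in no comparison, with levels of 48.5 to 63.9 CPM. All 10 rod markers were negative and called in the interaction, but 6 without WT replicate 1, 5 without WT replicate 2 and 0 without the 4 libraries with high matrix gene levels, and with the non-exonic read share as a covariate no gene of either list was called. Over all tested genes, 1699, 1730, 726 and 17 were called in these fits, in the same order.

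Markers of other cells were read beside these results. In Akita + NACET against Akita, 2 of 5 red blood cell markers, 2 of 10 vascular markers and 1 of 10 Mueller glia markers rose. None of 10 pigment epithelium and none of 10 microglia and macrophage markers was called. The share called over all tested genes was 9.65%, and the Mueller glia count is close to it. The red blood cell count was 0 without Akita replicate 4 and 0 with the covariate, and ranged to 4 when other libraries were left out. The vascular count was 0 without Akita replicate 3 or 4 or Akita + NACET replicate 2. The single Mueller glia call was lost without any 1 of the 4 Akita libraries or of Akita + NACET replicates 2, 4 and 5. Over all tested genes, 808, 1511, 992 and 1 were called without Akita replicates 1, 2, 3 and 4. Without Akita + NACET replicates 2, 4 and 5, 425, 872 and 101 were called, and 0 with the covariate. In Akita against WT, where 7.64% of all tested genes were called, 3 of 10 rod markers rose. In the same comparison 2 of 10 Mueller glia and 2 of 10 vascular markers fell. All 3 of these counts were 0 without Akita replicate 4, WT replicate 1 or WT replicate 2. Over all tested genes, 234, 0 and 0 were called in these fits, in the same order. DESeq2 called 8 rod markers higher, and it called 13.0% of all genes for which it gave an adjusted p. In WT + NACET against WT none of these markers was called, against 1.48% of all tested genes.

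Pigment epithelium markers moved with the groups without passing the test. In Akita + NACET against Akita all 10 had positive estimates, with a median log2 fold change of 1.69 and 6 at an unadjusted p under 0.05, and their summed level was 73.2 to 254 CPM in Akita and 102 to 729.7 CPM in Akita + NACET. In WT + NACET against WT 9 of 10 were positive, with a median of 1.43 and 4 at an unadjusted p under 0.05. In Akita against WT all 10 were negative, with a median of -1.40 and 2 at an unadjusted p under 0.05. Over all 16183 tested genes, 4700, 3162 and 4377 had an unadjusted p under 0.05 in these comparisons, in the same order. The part of the pigment epithelium markers in the levels of the 10 NRF2 targets was not tested.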

How the data were processed

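The members and gene lists were chosen with earlier results of these data known, and the 10 matrix and stroma genes were listed after these libraries had been seen. RNA of male mouse retina was sequenced as single-end poly(A) libraries. According to the submitters' processing notes and methods, the authors checked reads with FastQC, aligned them to mm9 with TopHat2 2.1.0 and Bowtie, and counted them per gene without strand using HTSeq 0.11.2. The annotation is not given in the sources used here. The deposited files hold these raw counts per gene, with 35006 gene names each. For this report 206 ribosomal RNA genes, which took 0.977% of gene counts on average, and 1 unnamed entry (0.00544%) were removed. Reads aligned to several places (9.04% on average) carry no gene.

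Counts of all 4 groups were fitted together with edgeR 4.0.16 (TMM, filterByExpr with a minimum count of 10 and a total of 15, robust quasi-likelihood F test) in R 4.3.3, with Benjamini-Hochberg adjustment over the 16183 genes tested and a call at an adjusted p of at most 0.05. The SE was taken as the size of the log2 fold change divided by the square root of the F statistic. The 95% intervals were computed from this SE with a t quantile. The biological coefficient of variation was 0.186, and counting error adds most to genes with few reads. CPM used the TMM library sizes, and exon lengths and mm9 loci came from GENCODE M1, which held 96.1% of the gene names. The fit was also run on simulated counts with the same dispersion for every gene. That run does not cover genes that spread as unevenly as Mgst1 and Slc7a11. Spread between libraries was computed on log2(CPM + 0.5). All 10 members are named, and of 34 further pathway genes up to 4 called per direction by smallest p, with Nfe2l2, Keap1, Ikbkg and G6pd2 added. DESeq2 1.42.0 was an alternative, beside its size factors, no filter, ribosomal RNA kept, a fit of the compared groups only, the replicate number as a block, the non-exonic read share as a covariate, and leaving out each library.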

Additional observations from a re-analysis of the deposited data

Results flagged for a closer look

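Of 30 combinations of gene and group with 4 or more libraries, 3 held a library whose gap to its nearest neighbour was large for the range of the group (Dixon's criterion), where chance alone gives about 5%. Hmox1 in WT + NACET replicate 5 was at 7.55 CPM and the next library at 4.42. Hmox1 in Akita replicate 3 was at 4.83 CPM and the next at 3.15, barely past the criterion (0.830 against 0.829). Both libraries are among the 4 with high matrix gene levels. Me1 in Akita replicate 4 was at 127 CPM and the next library at 84.4. This is the library with the highest summed rod markers, the highest G6pdx and the lowest Nqo1 and Mgst1.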

How the results depend on the processing

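Over all alternatives, 1 of 150 values of single genes was called in Akita against WT, 6 of 170 in Akita + NACET against Akita, 0 of 170 in WT + NACET against WT, 0 of 160 in Akita + NACET against WT and 1 of 250 in the interaction. DESeq2 called 1 of the 10 genes in Akita against WT. The count of 1 in Akita + NACET against Akita became 0 without an expression filter, with the replicate block, with the non-exonic read share as a covariate, with only the compared groups in the fit and without the libraries with high matrix gene levels, and it ranged from 0 to 1 when single libraries were left out. In the interaction that range was also 0 to 1. The cause was not tested. With the longest transcript as length, the mean G6pdx level was 36.9 in place of 31.7 CPM per kilobase. The other 49 level values moved by less than 1 SD.

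Whether the replicate numbers pair the libraries was not settled. In their deviations from group means, 4 of 22 same-numbered pairs correlated above 0.1 (range -0.33 to 0.34). Pairs with different numbers were not compared. With the replicate block none of the 10 genes was called in any comparison. Counts of all called genes went from 1237 to 507 in Akita against WT, 1562 to 219 in Akita + NACET against Akita, 240 to 190 in WT + NACET against WT, 1 to 0 in Akita + NACET against WT and 3289 to 2656 in the interaction.

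All sign changes were in values that were not called. With the non-exonic read share as a covariate they were Hmox1 (-0.40), Gsr (-0.20) and G6pdx (-0.075) in Akita against WT, Hmox1 (0.012) and Me1 (0.057) in Akita + NACET against Akita, Me1 (-0.11) in WT + NACET against WT, and Gclm (0.083), G6pdx (0.21) and Me1 (0.16) in the interaction. Without the libraries with high matrix gene levels they were Hmox1 (-0.21), Gsr (-0.025) and Mgst1 (0.54) in Akita against WT, Slc7a11 (0.44), Gclm (0.031), Mgst1 (0.43) and Srxn1 (-0.056) in Akita + NACET against WT, and Gclm (0.11) in the interaction. With the replicate block Srxn1 in Akita + NACET against WT was -0.0085.

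Leaving out single libraries gave ranges that cross 0. In Akita against WT they were -0.26 to 0.19 for Nqo1, -0.20 to 0.097 for Hmox1, -0.24 to 1.51 for Slc7a11, -0.15 to 0.099 for Gclc, -0.16 to 0.014 for Gclm, -0.016 to 0.12 for Gsr and -0.78 to 1.01 for Mgst1. In Akita + NACET against Akita they were -0.092 to 0.36 for Nqo1, -0.030 to 0.14 for Gclm and -0.0061 to 0.13 for Gsr. In WT + NACET against WT they were -0.27 to 1.65 for Mgst1, -0.075 to 0.081 for Srxn1, -0.11 to 0.15 for Gclc and -0.080 to 0.0038 for G6pdx. Ranges in Akita + NACET against WT were -0.042 to 0.27 for Nqo1, -1.12 to 0.44 for Slc7a11, -0.056 to 0.031 for Gclm, -1.30 to 0.43 for Mgst1 and -0.057 to 0.099 for Srxn1, and in the interaction -0.091 to 0.079 for Gclm.

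Counts over all genes differed more between settings. In Akita against WT they were 2056 with DESeq2, 148 with only the compared groups, 125 without the high matrix libraries, 0 with the covariate and 0 to 1515 when single libraries were left out. In Akita + NACET against Akita they were 1010 with no filter, 700 with only the compared groups, 857 without the high matrix libraries, 0 with the covariate and 1 (without Akita replicate 4) to 1754. In WT + NACET against WT they were 712 with DESeq2, 74 without the high matrix libraries, 61 with the covariate and 72 to 329. Counts in Akita + NACET against WT lay between 0 and 11, and in the interaction they were 726 without the high matrix libraries, 17 with the covariate and 1699 to 3524.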
